A study of Rattus norvegicus with 9 samples.

Results

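Ppara encodes peroxisome proliferator-activated receptor alpha, a nuclear receptor that binds fatty acids and switches on genes of fat handling during fasting. It was described here in kidney together with 6 of the genes it is known to induce. The members were chosen by identifier as Ppara (ENSMUSG00000022383), Cyp4a10 (ENSMUSG00000066072), Cyp4a14 (ENSMUSG00000028715), Acot1 (ENSMUSG00000072949), Plin2 (ENSMUSG00000028494), Pdk4 (ENSMUSG00000019577) and Angptl4 (ENSMUSG00000002289). Of these 7, all were found among the 17862 features of every sample. All 7 passed the limit of a mean of at least 1 FPKM that left 12187 features for testing. FPKM here is a level scaled to feature length and to a total implied for each library, which need not be its count of reads. Ribosomal RNA-depleted RNA from renal tissue was sequenced in 9 samples at 6 weeks of age, in 3 groups of 3: animals labelled normal (WT), animals labelled hypertensive and given no granule (Model), and animals labelled hypertensive that received the herbal preparation Qingda granule (QDG). The labels name the brown rat, whereas the feature identifiers carry the prefix of mouse genes, so mouse RNA and rat RNA assigned to mouse genes cannot be told apart here. Neither the strain, the origin of the hypertension, the granule's dose, the feeding state at collection nor the number of animals per group was given in the sources used here. The spread behind each p-value is that between these 9 samples and may be technical.

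PPAR alpha acts as a partner of the retinoid X receptor on DNA elements made of repeated AGGTCA half-sites. In the fasted state it is activated by fatty acids released from fat stores, and its targets then carry fat into oxidation. The renal proximal tubule, which lives largely on fatty acid oxidation, is among the tissues where the receptor is best known. Several of these targets also answer to other regulators: Pdk4 to FOXO factors and glucocorticoids, and Angptl4 to glucocorticoids, hypoxia and the other PPAR receptors.

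Whether upstream sequence bears on the direction in which a member moved was not tested. The upstream sequences of the receptor gene and of the called targets that had an entry are shown as a description only. They are the 250 bases before the start site in the rat RefSeq table (GRCr8), 5′ to 3′ on the gene's strand, with AGGTCA half-sites found on either strand in capitals. The windows are Ppara at chr7:118712357-118712606 (plus strand), Cyp4a14 at chr5:134352237-134352486 (minus strand, listed as Cyp4a3 with Cyp4a14 as a synonym) and Angptl4 at chr7:15258682-15258931 (minus strand).
Ppara: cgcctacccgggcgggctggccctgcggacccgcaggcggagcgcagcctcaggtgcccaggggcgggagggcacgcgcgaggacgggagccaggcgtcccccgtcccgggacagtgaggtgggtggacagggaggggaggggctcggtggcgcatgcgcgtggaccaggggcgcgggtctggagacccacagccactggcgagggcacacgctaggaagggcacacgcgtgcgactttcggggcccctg
Cyp4a14: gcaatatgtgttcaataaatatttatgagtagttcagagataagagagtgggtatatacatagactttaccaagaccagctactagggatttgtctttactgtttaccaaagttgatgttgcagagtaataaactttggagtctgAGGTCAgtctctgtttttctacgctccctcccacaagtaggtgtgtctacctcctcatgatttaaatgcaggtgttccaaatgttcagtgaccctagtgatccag
Angptl4: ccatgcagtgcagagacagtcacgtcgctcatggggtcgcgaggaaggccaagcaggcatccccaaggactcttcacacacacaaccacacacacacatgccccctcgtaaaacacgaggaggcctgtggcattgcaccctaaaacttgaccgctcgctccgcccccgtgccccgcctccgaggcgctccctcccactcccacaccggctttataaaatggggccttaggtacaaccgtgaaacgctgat
Of the 7 members, 5 matched the rat table by symbol and 2 by synonym, and 6 had at least 1 window, 7 windows in all. Cyp4a10 had no window. The half-site AGGTCA, searched on both strands, was found once among these 7 windows, in that of Cyp4a14 with its first base 105 bases before the start, and 14.1% of all 33469 windows of this length held it. The direct repeat AGGTCANAGGTCA was in 0 of the 7 windows and in 0.0508% of all windows, and the looser AGGNCANAGGNCA, which includes the former, was in 0 and in 0.368%. These are letter matches in a short rat window and describe no bound site. The guanine and cytosine content was 76% in the Ppara window, 60% in that of Angptl4 and 39.6% in that of Cyp4a14.

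The comparison of Model with WT asks how the hypertensive kidney differs from the normal one. Against WT, 2 of the 7 members fell, 1 rose and 4 did not pass the test, which was limma on log2(FPKM + 1) over all 12187 features with a Benjamini-Hochberg adjusted p under 0.05. The members that fell were the omega-hydroxylases Cyp4a10 and Cyp4a14, and the member that rose was Angptl4. Over all tested features 7.90% were called in this comparison, 6.01% as higher and 1.90% as lower. Groups that did not overlap, with all 3 values of one above all 3 of the other, were seen for 4 of 7 members (2 higher in Model, 2 lower) and for 28.2% of all features (17.3% higher, 10.9% lower). The median log2 change was −0.13 over the 7 members and 0.02 over all features. In bulk tissue, fewer cells of a type and less RNA per cell cannot be told apart, and this holds for each result here.

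**Figure D1:**
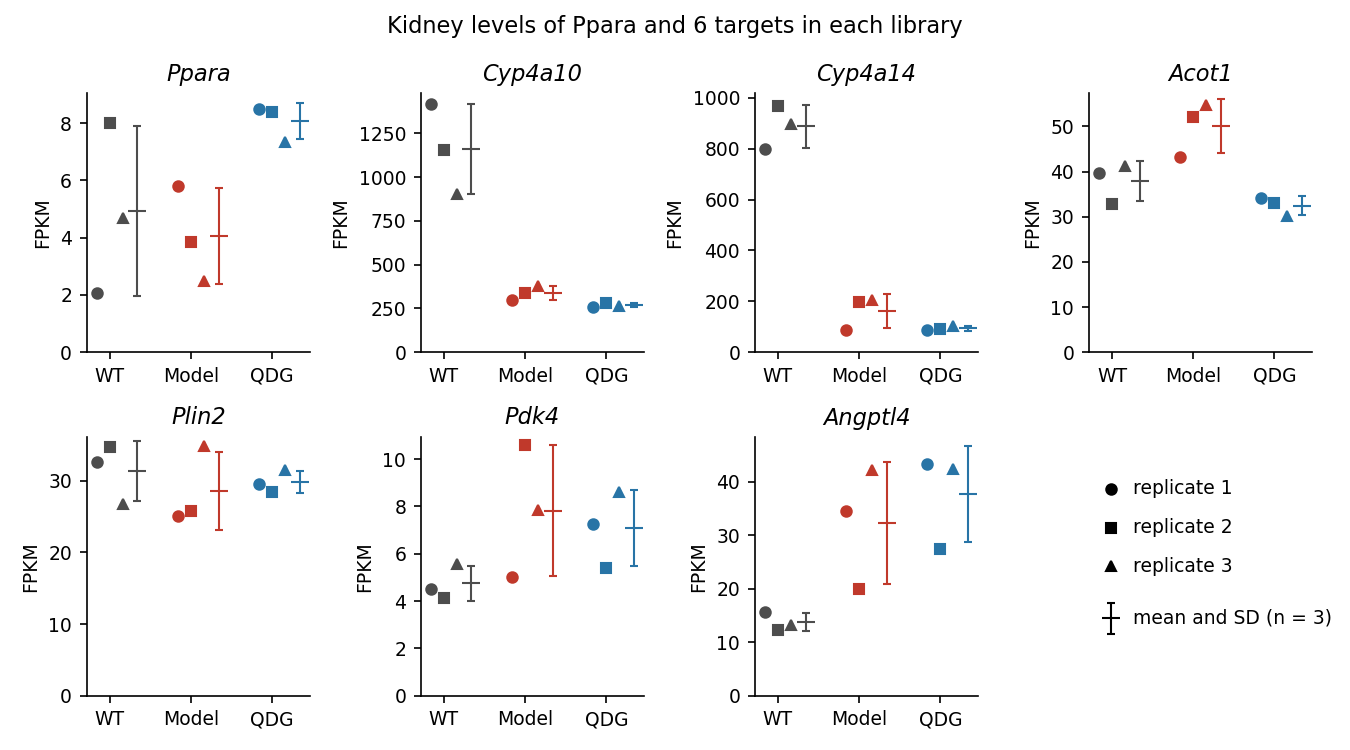
Deposited FPKM (linear axes from 0) of each of the 7 genes in the 9 libraries, 3 per group, with symbols for the replicate and a bar for mean and SD. Cyp4a10 and Cyp4a14 stood higher in all 3 WT libraries than in any Model or QDG library, Angptl4 lower, and Ppara spread from 2.08 to 7.997 FPKM within WT.

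Cyp4a10 and Cyp4a14 are cytochrome P450 enzymes that hydroxylate the terminal carbon of fatty acids, and in liver and kidney they are among the genes that respond most to PPAR alpha agonists. Cyp4a10 stood at 1419, 1152 and 906 FPKM in WT libraries 1, 2 and 3, at 295, 339 and 377 FPKM in Model, and at 260, 281 and 264 FPKM in QDG. The WT libraries lay far above all others, and the QDG libraries all lay below the Model libraries. Group means were 1159 ± 257 FPKM (SD, n = 3) in WT, 337 ± 41.2 FPKM in Model and 268 ± 11.3 FPKM in QDG. Model was thus lower than WT by 3.44-fold in mean FPKM, with a log2 change of −1.76 on the log2(FPKM + 1) scale, an SE of 0.18 and a limma adjusted p of 0.00210. This gene ranked 58 of 17862 by mean level, and 15734 to 78419 reads or fragments were recovered for it per library, so counting error was small.

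Cyp4a14 stood at 799, 968 and 897 FPKM in WT, at 85.8, 199 and 205 FPKM in Model, and at 86.3, 89.3 and 104 FPKM in QDG. The WT libraries were again apart from the rest, while Model 1 stood at the level of the QDG libraries and the other Model libraries at more than that. The means were 888 ± 84.6 FPKM (SD, n = 3) in WT, 163 ± 67.1 FPKM in Model and 93.1 ± 9.26 FPKM in QDG. The Model mean was 5.44-fold lower than that of WT, with a log2 change of −2.54, an SE of 0.28 and a limma adjusted p of 0.00356. Counted from the most lowered of the 12187 tested features, Cyp4a14 ranked 5 and Cyp4a10 ranked 10.

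The fall of both Cyp4a genes passed the threshold in all 18 alternatives tried for this comparison. Their log2 changes ran from −1.93 to −1.60 for Cyp4a10 and from −2.77 to −2.13 for Cyp4a14, with adjusted p of at most 0.0184 and 0.0207 (limma). Both belong to a cluster of closely similar genes. The treatment of reads shared between such paralogs was not given in the sources used here, so the split between Cyp4a10, Cyp4a14 and their relatives is uncertain. Together they held 0.472% to 0.486% of the reads recovered in listed features in WT, 0.0827% to 0.131% in Model and 0.0774% to 0.0861% in QDG.

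The ratio of Cyp4a14 to Cyp4a10, both per length, was 0.563, 0.840 and 0.990 in WT, 0.291, 0.586 and 0.543 in Model, and 0.332, 0.318 and 0.392 in QDG. The WT and Model ratios overlapped, and all QDG ratios were below all WT ratios. The mean log2 ratio differed by −0.78 between Model and WT (exact permutation test over samples, two-sided, p = 0.2, adjusted over 3 comparisons 0.3) and by −1.17 between QDG and WT (exact permutation test, p = 0.1, adjusted 0.3). For 3 samples against 3 the smallest p that this permutation test can give is 0.1, so it could not have passed 0.05 and does not show whether the falls were equal or unequal. Between QDG and Model the difference was −0.39 (exact permutation test, p = 0.4, adjusted 0.4).

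Angptl4 encodes a secreted protein that inhibits lipoprotein lipase and so limits uptake of fat from blood. It stood at 15.6, 12.3 and 13.2 FPKM in WT, at 34.6, 19.9 and 42.2 FPKM in Model, and at 43.2, 27.4 and 42.4 FPKM in QDG. All WT libraries were below every other library, and within each of the 3 groups the library numbered 2 was the lowest. With the replicate block the SE for Model against WT was 0.17 (limma adjusted p = 0.0219). The means were 13.7 ± 1.67 FPKM (SD, n = 3) in WT, 32.2 ± 11.3 FPKM in Model and 37.7 ± 8.90 FPKM in QDG. The rise in Model was 2.36-fold in mean FPKM, with a log2 change of 1.12, an SE of 0.26 and a limma adjusted p of 0.0314. It ranked 73 from the most raised feature. The call was lost in 5 of 18 alternatives (limma adjusted p = 0.0593 without WT 1 and 0.0922 without WT 2, 0.0883 without Model 1 and 0.0998 without Model 3, and 0.0652 with only WT and Model fitted), all of which left out libraries. The log2 change ran from 0.90 to 1.42 over the alternatives that could move it. The filters, the 2-group fit, the replicate block and leaving out a QDG library could not.

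**Figure D2:**
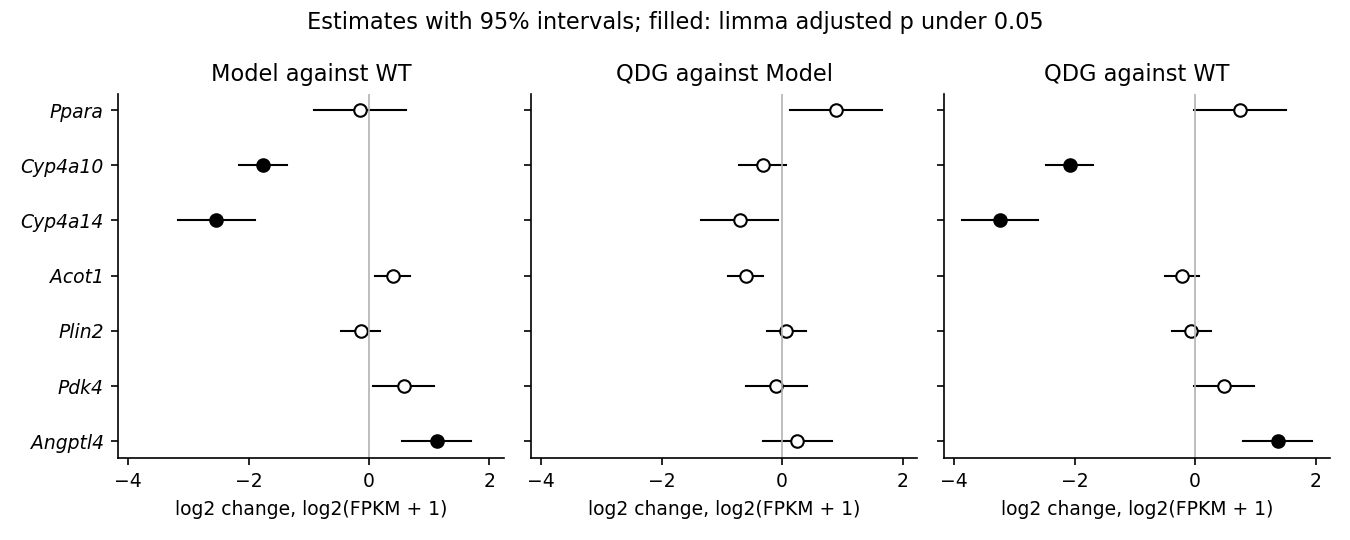
Log2 change on the log2(FPKM + 1) scale of each gene in the 3 comparisons, as limma estimates with 95% intervals. Filled points, Cyp4a10, Cyp4a14 and Angptl4 in both comparisons with WT, had an adjusted p under 0.05, and none was filled for QDG against Model.

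Acot1, Pdk4, Plin2 and Ppara did not pass in Model against WT. Acot1, a cytosolic thioesterase that splits long-chain acyl-CoA into free fatty acid and CoA, stood at 39.7, 32.8 and 41.2 FPKM in WT, at 43.3, 52.0 and 54.7 FPKM in Model, and at 34.2, 33.0 and 30.1 FPKM in QDG. All Model libraries lay above all WT and all QDG libraries. Against WT, Model had a log2 change of 0.39 ± 0.13 (SE), limma adjusted p = 0.0855. It was 0.19 after quantile normalization, and the adjusted p ran from 0.0629 to 0.362 over 18 alternatives, none under 0.05. Acot1 also has close paralogs, so its reads may be shared with them.

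Pdk4, a kinase that shuts off pyruvate dehydrogenase and spares glucose when fat is burned, stood at 4.51, 4.15 and 5.58 FPKM in WT, at 5.03, 10.6 and 7.83 FPKM in Model, and at 7.26, 5.38 and 8.61 FPKM in QDG. The groups overlapped through Model 1 and QDG 2, which lay below WT 3. Against WT, Model had a log2 change of 0.58 ± 0.23 (SE), limma adjusted p = 0.134, and 383 to 1116 reads or fragments were recovered per library. The change was 0.35 without Model 2 and 0.82 without Model 1 (limma adjusted p = 0.2998 and 0.0609), and no alternative brought it past the threshold.

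Plin2, a coat protein of lipid droplets that accumulates with stored fat, varied least of the 7 over the 9 libraries together, though not within any single group. It stood at 32.6, 34.7 and 26.7 FPKM in WT, at 25.1, 25.8 and 34.9 FPKM in Model, and at 29.5, 28.5 and 31.5 FPKM in QDG. All 3 groups overlapped. The 95% interval of its log2 change ran from −0.46 to 0.19 for Model against WT, from −0.25 to 0.40 for QDG against Model and from −0.39 to 0.26 for QDG against WT (limma, before adjustment for the number of features).

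Ppara itself stood at 2.08, 7.997 and 4.70 FPKM in WT, at 5.82, 3.85 and 2.49 FPKM in Model, and at 8.48, 8.38 and 7.36 FPKM in QDG. WT 2 lay within the range of the QDG libraries and WT 1 was the lowest of the 9, so WT overlapped both other groups. Against WT, Model had a log2 change of −0.15 ± 0.34 (SE), limma adjusted p = 0.805. Its sign turned without WT 2 (0.22) and without Model 3 (0.09), and it was −0.56 without WT 1 and −0.39 without Model 1. Recovered reads or fragments for the receptor numbered 209 to 941 per library, so the spread within WT is larger than counting error.

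The receptor's spread among WT libraries was wider than that of most features. The SD of log2(FPKM + 1) over the 3 WT libraries was 0.78 for Ppara, above or equal to that of 99.4% of tested features, whose median was 0.19. In Model it was 0.48, at 96.0% of features with a median of 0.15, and in QDG 0.10, at 54.8% with a median of 0.09. In Model, the SDs of Cyp4a14 (0.71, at 98.7%), Angptl4 (0.54, at 97.1%) and Pdk4 (0.47, at 95.7%) were also wide, and those of Angptl4 (0.36, at 96.7%) and Pdk4 (0.30, at 94.8%) were wide in QDG. In WT the 5 members other than Ppara and Cyp4a10 had SDs between 0.14 and 0.19, near the median of all features.

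The values of Ppara can be set beside a length trend of the libraries. Across the 12187 tested features, Spearman's rho between feature length and a library's deviation from the mean of the 9 was −0.05, 0.37 and 0.12 in WT 1, 2 and 3 and −0.16, −0.25 and −0.48 in Model 1, 2 and 3, the order of Ppara over the 3 libraries of each of these groups. In QDG it was −0.07, 0.30 and 0.27, and Ppara did not follow that order. How many other features followed the order in WT and Model was not counted. These rho describe features, which are not replicates, and carry no p. With each library's length trend removed, Ppara stood at 2.13, 8.07 and 4.82 in WT, 5.64, 3.86 and 2.38 in Model, and 8.40, 8.42 and 7.44 in QDG, on the FPKM scale. At 3836 bases, as recovered from the FPKM steps, its length is close to the median of 3712. The removal could therefore move Ppara little, so the nearly unchanged spread says little. Whether this spread and the length trend share a source was not tested.

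**Figure D3:**
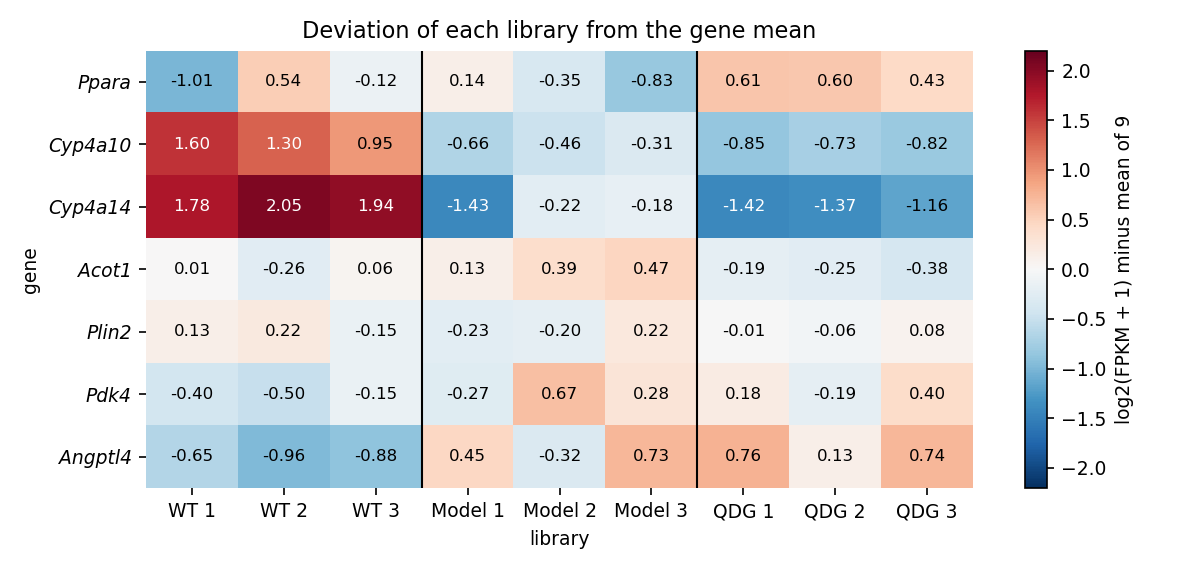
Deviation of each library from the gene's mean over the 9 libraries on the log2(FPKM + 1) scale, red for higher and blue for lower, with the 3 groups divided by lines. Both Cyp4a rows are high in WT and low elsewhere, the Angptl4 row is the reverse but for Model 2, and the Ppara row follows neither.

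The comparison of QDG with Model asks what the granule changed. None of the 7 members passed (0 of 7, limma), as was true of all tested features (0%), and voom on reads recovered from the FPKM steps also called 0 of 7 under both of its scalings. At an unadjusted p under 0.05 there were 3 of 7 members, Ppara as higher and Cyp4a14 and Acot1 as lower, against 13.9% of all features, 4.27% as higher and 9.64% as lower. Groups did not overlap for 3 of 7 members, which were Ppara (higher in QDG) and Cyp4a10 and Acot1 (lower), against 26.7% of all features (10.4% higher, 16.3% lower). The median log2 difference over the members was −0.10, against −0.02 over all features.

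Ppara had the largest log2 difference of the 7 between these groups, at 4.05 ± 1.67 FPKM (SD, n = 3) in Model and 8.07 ± 0.623 FPKM in QDG. It differed by a log2 of 0.90 ± 0.34 (SE), with a 95% interval from 0.14 to 1.66 before adjustment (limma adjusted p = 0.316). This SE draws also on the wide spread of the WT libraries. With only QDG and Model fitted it was 0.22 (limma adjusted p = 0.178). Ppara ranked 21 of 12187 from the most raised by size. Over the 18 alternatives its log2 difference ran from 0.66 to 1.14, with adjusted p between 0.178 and 0.734 (limma). The filters, the 2-group fit, the replicate block and leaving out a WT library could not move this difference or its sign. Acot1 had the smallest p of the members, at 49.996 ± 5.99 FPKM in Model and 32.4 ± 2.13 FPKM in QDG, with a log2 difference of −0.60, an SE of 0.13 and a limma adjusted p of 0.270. Its place by p was 36 of 12187. Over the alternatives that could move it, its log2 difference kept its sign and ran from −0.70 to −0.47.

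For the Cyp4a genes the QDG means lay below those of Model, farther from WT, by differences that did not pass the test. The log2 difference of Cyp4a10 was −0.32 ± 0.18 (SE), limma adjusted p = 0.433, and that of Cyp4a14 was −0.71 ± 0.28 (SE), limma adjusted p = 0.325. Model 1, at 85.8 FPKM, was lower than all QDG libraries for Cyp4a14, so these groups overlapped. Without Model 1 the Cyp4a14 difference was −1.11 (limma adjusted p = 0.0785), and without Model 3 it was −0.49 (limma adjusted p = 0.656). Angptl4 differed by 0.25 ± 0.26 (SE), limma adjusted p = 0.676, Pdk4 by −0.10 ± 0.23 (SE), limma adjusted p = 0.870 and Plin2 by 0.07 ± 0.15 (SE), limma adjusted p = 0.846. These small differences changed sign when a single library was left out: Angptl4 without Model 2 (−0.05), Pdk4 without Model 2 (0.13) or QDG 2 (0.07), and Plin2 without Model 1 (−0.01).

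The comparison of QDG with WT asks what set treated hypertensive kidney apart from normal kidney, and shares its WT libraries with the comparison of Model with WT. Here too 2 of 7 members were lower, Cyp4a10 and Cyp4a14, and 1 was higher, Angptl4, while 2.47% of all features were called, 1.63% as higher and 0.837% as lower. Cyp4a10 was 4.32-fold lower in mean FPKM, with a log2 change of −2.08, an SE of 0.18 and a limma adjusted p of 0.00140. Cyp4a14 was 9.54-fold lower, with a log2 change of −3.24, an SE of 0.28 and a limma adjusted p of 0.00140. From the most lowered feature they ranked 7 and 4. Both were called in all 18 alternatives, with log2 changes from −2.25 to −1.93 and from −3.32 to −3.18.

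Angptl4 was 2.75-fold higher in QDG than in WT, with a log2 change of 1.37, an SE of 0.26 and a limma adjusted p of 0.0276, and ranked 20 from the most raised. Its call was lost in 4 of 18 alternatives (limma adjusted p = 0.0722 without WT 1, 0.0641 without WT 2, 0.116 without QDG 1 and 0.0983 without QDG 3). The log2 change of Ppara was 0.74 ± 0.34 (SE), limma adjusted p = 0.245, of Pdk4 0.48 ± 0.23 (SE), limma adjusted p = 0.256, of Acot1 −0.21 ± 0.13 (SE), limma adjusted p = 0.369 and of Plin2 −0.06 ± 0.15 (SE), limma adjusted p = 0.842. That of Ppara was 0.34 without WT 1 and 1.11 without WT 2 (limma adjusted p = 0.581 and 0.0930), and passed in no alternative. Groups did not overlap for Cyp4a10, Cyp4a14 and Angptl4, 3 of 7 against 27.7% of all features (15.2% higher, 12.5% lower), and overlapped for the other 4.

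**Figure D4:**
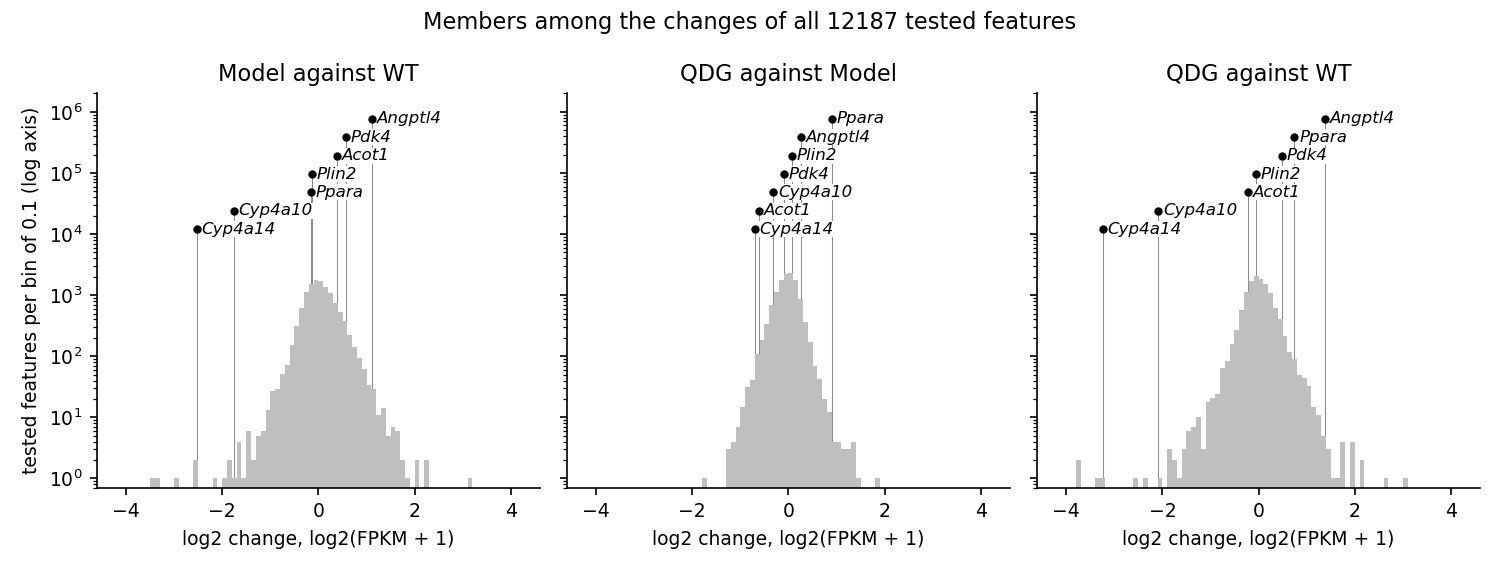
Log2 changes of all 12187 tested features in bins of 0.1 (grey bars, logarithmic count axis) for the 3 comparisons, with the 7 genes marked by points at their own change (the height of a point has no meaning). Both Cyp4a genes lie at the lower edge in the comparisons with WT, and Ppara lies near the upper edge for QDG against Model with a difference of 0.90.

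Per length, the order of levels also differed between groups. In WT the order of mean FPKM was Cyp4a10, Cyp4a14, Acot1, Plin2, Angptl4, Ppara and Pdk4. Neighbours overlapped between Cyp4a10 and Cyp4a14, between Acot1 and Plin2, and between Ppara and Pdk4. In Model the order was Cyp4a10, Cyp4a14, Acot1, Angptl4, Plin2, Pdk4 and Ppara, with overlap between Angptl4 and Plin2 and between Pdk4 and Ppara. In QDG Angptl4 (37.7 FPKM) came before Acot1 (32.4 FPKM) and Plin2 (29.8 FPKM), each overlapping the next, and Ppara (8.07 FPKM) before Pdk4 (7.09 FPKM), which also overlapped. Of the 17862 features, Cyp4a10 ranked 21, 24 and 29 by level in the WT libraries, 162, 127 and 146 in Model and 183, 136 and 157 in QDG.

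The members did not form a single pattern, and the receptor's level showed no clear positive relation to that of any target. As a description over the 9 libraries, which share the groups and the depths, Pearson's r of log2(FPKM + 1) between Ppara and a target was −0.41 for Cyp4a10, −0.41 for Cyp4a14, −0.75 for Acot1, −0.18 for Plin2, −0.09 for Pdk4 and 0.19 for Angptl4. The share of tested features with a higher r with Ppara was 77.3%, 77.1%, 95.7%, 61.1%, 55.2% and 36.4% in the same order. Taken on deviations from the group means, r was negative for each target, at −0.64, −0.31, −0.70, −0.32, −0.34 and −0.33 in the same order. The share of tested features with a higher r was not counted for these deviations. These negative values may thus be no different from those of other features. Cyp4a10 and Cyp4a14 had r = 0.97, and 0.0739% of tested features were more like Cyp4a10 than Cyp4a14 was. On deviations from the group means their r was 0.32, so the likeness lay mostly in the difference between WT and the other groups. Angptl4 had r = −0.86 with Cyp4a10 and −0.88 with Cyp4a14 over the 9 libraries, but 0.13 and −0.19 on deviations from the group means, so this opposition too lay in the difference between WT and the other groups. Most like Ppara among features that are no members was ENSMUSG00000058921 (r = 0.99 over 9 libraries), at 5.74 ± 3.06 FPKM (SD, n = 3) in WT, 4.72 ± 1.58 FPKM in Model and 7.98 ± 0.314 FPKM in QDG. Most like the mean standardized profile of the 6 targets was ENSMUSG00000021772 (r = 0.93), at 4.85 ± 0.252, 4.98 ± 0.730 and 4.06 ± 0.257 FPKM in the same groups. That profile averages targets that oppose each other, as Angptl4 and the Cyp4a genes do, so it need resemble none of them. Both features were picked as the highest r among all tested features that are no members, over only 9 libraries. The files do not pair identifiers with names, so these features are given by identifier.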

How the data were processed

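The authors deposited a table of feature values for each sample. Its unit is not written in the files and was taken as FPKM because whole reads, feature lengths and library totals could be recovered from the steps of the deposited values for 17861 of 17862 features (within 0.0002 read, or 2e-08 of the reads). The submitters' processing notes name limma, and none of aligner, counter, build or annotation was given in the sources used here. Per the labels' protocols the steps were Trizol extraction and ribosomal RNA depletion. Implied library totals were 26.2 M to 31.4 M, and 26.8 M to 29.4 M reads or fragments lay in the listed features, more than the implied total in some libraries. Same-group libraries differed beyond counting noise (chi-square per degree of freedom of 12.2 to 69.5).

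The 12187 features at or above a mean of 1 FPKM were fitted as log2(FPKM + 1) with limma 3.58.1 (R 4.3.3), with an intensity trend and one spread for all 9 samples. Folds on this scale understate changes of low genes. P-values are two-sided and adjusted over all tested features. Alternatives were another pseudocount (0.1), other filters (5 FPKM, none), quantile normalization, 2-group fits, voom on recovered reads, removal of the length trend, a replicate block and leaving out each library. The filters, the 2-group fits, the replicate block and leaving out a library of the group not compared cannot move a log2 change.

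The 7 members and their symbols, and the lists, were chosen with earlier results of these data known. All 7 members are named, passing or not, with the feature most like Ppara and that most like the mean target profile. The 16 lists of pathway genes and cell type markers are written in symbols and matched 0 identifiers, so they, and a check of kidney markers, were not analysed here.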

Additional observations from a re-analysis of the deposited data

How the results depend on the processing

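Of the 7 genes, 3 were called in Model against WT, 0 in QDG against Model and 3 in QDG against WT, and leaving out 1 library gave 2 to 3, 0 and 2 to 3, the gene lost each time being Angptl4. Over all features, the count for Model against WT was 963. It was 144 when WT and Model alone were fitted, 533 with the replicate block and 195 to 1529 with 1 library left out (without Model 3 and without WT 3). For QDG against Model it was 0, then 1 when these groups alone were fitted and 0 to 3 with 1 library left out (3 without Model 1). For QDG against WT it was 301, then 493 with quantiles equalized, 486 when these groups alone were fitted, 530 without the length trend, 154 with the replicate block and 39 to 775 with 1 library left out (without QDG 2 and without WT 3). The cause was not tested. In Model against WT, 732 features were called higher and 231 lower, against 442 and 286 with quantiles equalized, 475 and 283 without the length trend, 674 and 429 with voom on median-ratio scaling, and 500 and 283 with voom on total reads. The labels do not say whether replicate numbers pair the samples. Deviations of same-numbered libraries correlated at −0.33, −0.29 and −0.03 between Model and WT, −0.08, 0.14 and 0.05 between QDG and Model, and 0.09, 0.01 and −0.13 between QDG and WT. These few values cannot settle whether the samples were paired. Not every library correlated best with its own number, and the replicate block changed no call among the 7 genes. Ppara and Pdk4, with as few as 209 and 383 recovered reads or fragments in a library, were the least covered members.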
